A study of Drosophila melanogaster with 3 samples.

Results

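Cytosolic ribosomal protein genes were examined in ChIP-seq peak tables of Drosophila S2 cells. Members were chosen by name: RpL or RpS followed by a digit, together with RpLP0, RpLP1, RpLP2 and sta, leaving out kinases and names with a hyphen. The rule found 71 genes among 6016 genes listed in either table. Of these, 37 encode large subunit proteins, 31 small subunit proteins including sta, and 3 stalk proteins. The SMARCAD1 table listed 46 of them in 62 entries, and the CBP table listed 68 in 84 entries. Both tables listed 43 members, SMARCAD1 alone 3 and CBP alone 25. A member is listed because a peak overlaps it or lies nearest to it, so shares of the 71 leave out ribosomal protein genes with no entry.

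Each cytosolic ribosome has a large and a small subunit, built from rRNA and many small proteins. The genes of these proteins are short, transcribed at high levels in growing cells and scattered over the chromosomes. In Drosophila, losing a single copy of many of them causes the Minute phenotype of slow development and thin bristles. Their promoters in flies are known for an unusual initiator, the TCT motif, and many of their introns carry small nucleolar RNAs (snoRNAs).

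S2 is an embryo-derived, macrophage-like cell line. The study asked where SMARCAD1, an ATP-dependent chromatin remodeller of the Etl1 subfamily, and CBP, a histone acetyltransferase, sit on the genome. There was 1 library per antibody, 1 with rabbit anti-SMARCAD1 and 1 with rabbit anti-CBP, and an input DNA library for which no table was analysed here. The cells of all libraries had received dsRNA of EGFP, which has no target in these cells, for 6 h at 26 °C without serum, and were cultured for a further 72 h with serum. No cells depleted of SMARCAD1 or CBP entered the tables. The tables held 3211 SMARCAD1 peaks and 3762 CBP peaks with positions and distances but no read counts, P values or scores. Depth is therefore unknown, and no value has a replicate. A peak below the threshold of the caller is not listed, and weak or false calls among the listed peaks cannot be told from strong ones. Wilson 95% intervals on shares and binomial 95% intervals on medians cover counting error over genes only. No test between antibodies or gene sets was made.

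CBP peaks covered the start of nearly every listed ribosomal protein gene, whereas SMARCAD1 peaks covered fewer than 50% of them. A CBP peak lay over the annotated start (transcription start site, TSS) of 63 of 71 members (88.7%, 95% interval 79.3 to 94.2%). Among all listed genes the share was 59.9%, and among annotated protein-coding genes, listed or not, it was 24.1%. A SMARCAD1 peak lay over the start of 31 members (43.7%, 32.7 to 55.2%), close to the 45.9% of all listed genes (17.9% of annotated protein-coding genes). All 31 of these starts also had a CBP peak, so 43.7% of members had both antibodies against 31.6% of all listed genes. No member had SMARCAD1 alone over its start by this rule, and the upper limit of the interval for 0 of 71 was 5.13%. Other peak rules gave some such members. With the peak centre within 500 bp of the start, 22 members had SMARCAD1 and 21 both, and with nearest starts alone 18 and 16. Of 2763 listed genes with SMARCAD1 over the start, 1901 (68.8%) also had CBP there. Seen from CBP, SMARCAD1 covered 31 of 63 member starts with CBP (49.2%, 37.3 to 61.2%), against 52.7% of all listed genes with CBP over the start. Counted over 87 annotated ribosomal protein genes, which adds those with no entry, the shares were 73.6% for CBP and 36.8% for SMARCAD1. Both depend on how a start is counted. When a peak was assigned only to the gene with the nearest start, 37 members had CBP (52.1%, against 37.4% of all listed genes) and 18 had SMARCAD1 (25.4%, against 28.0%).

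**Figure D1:**
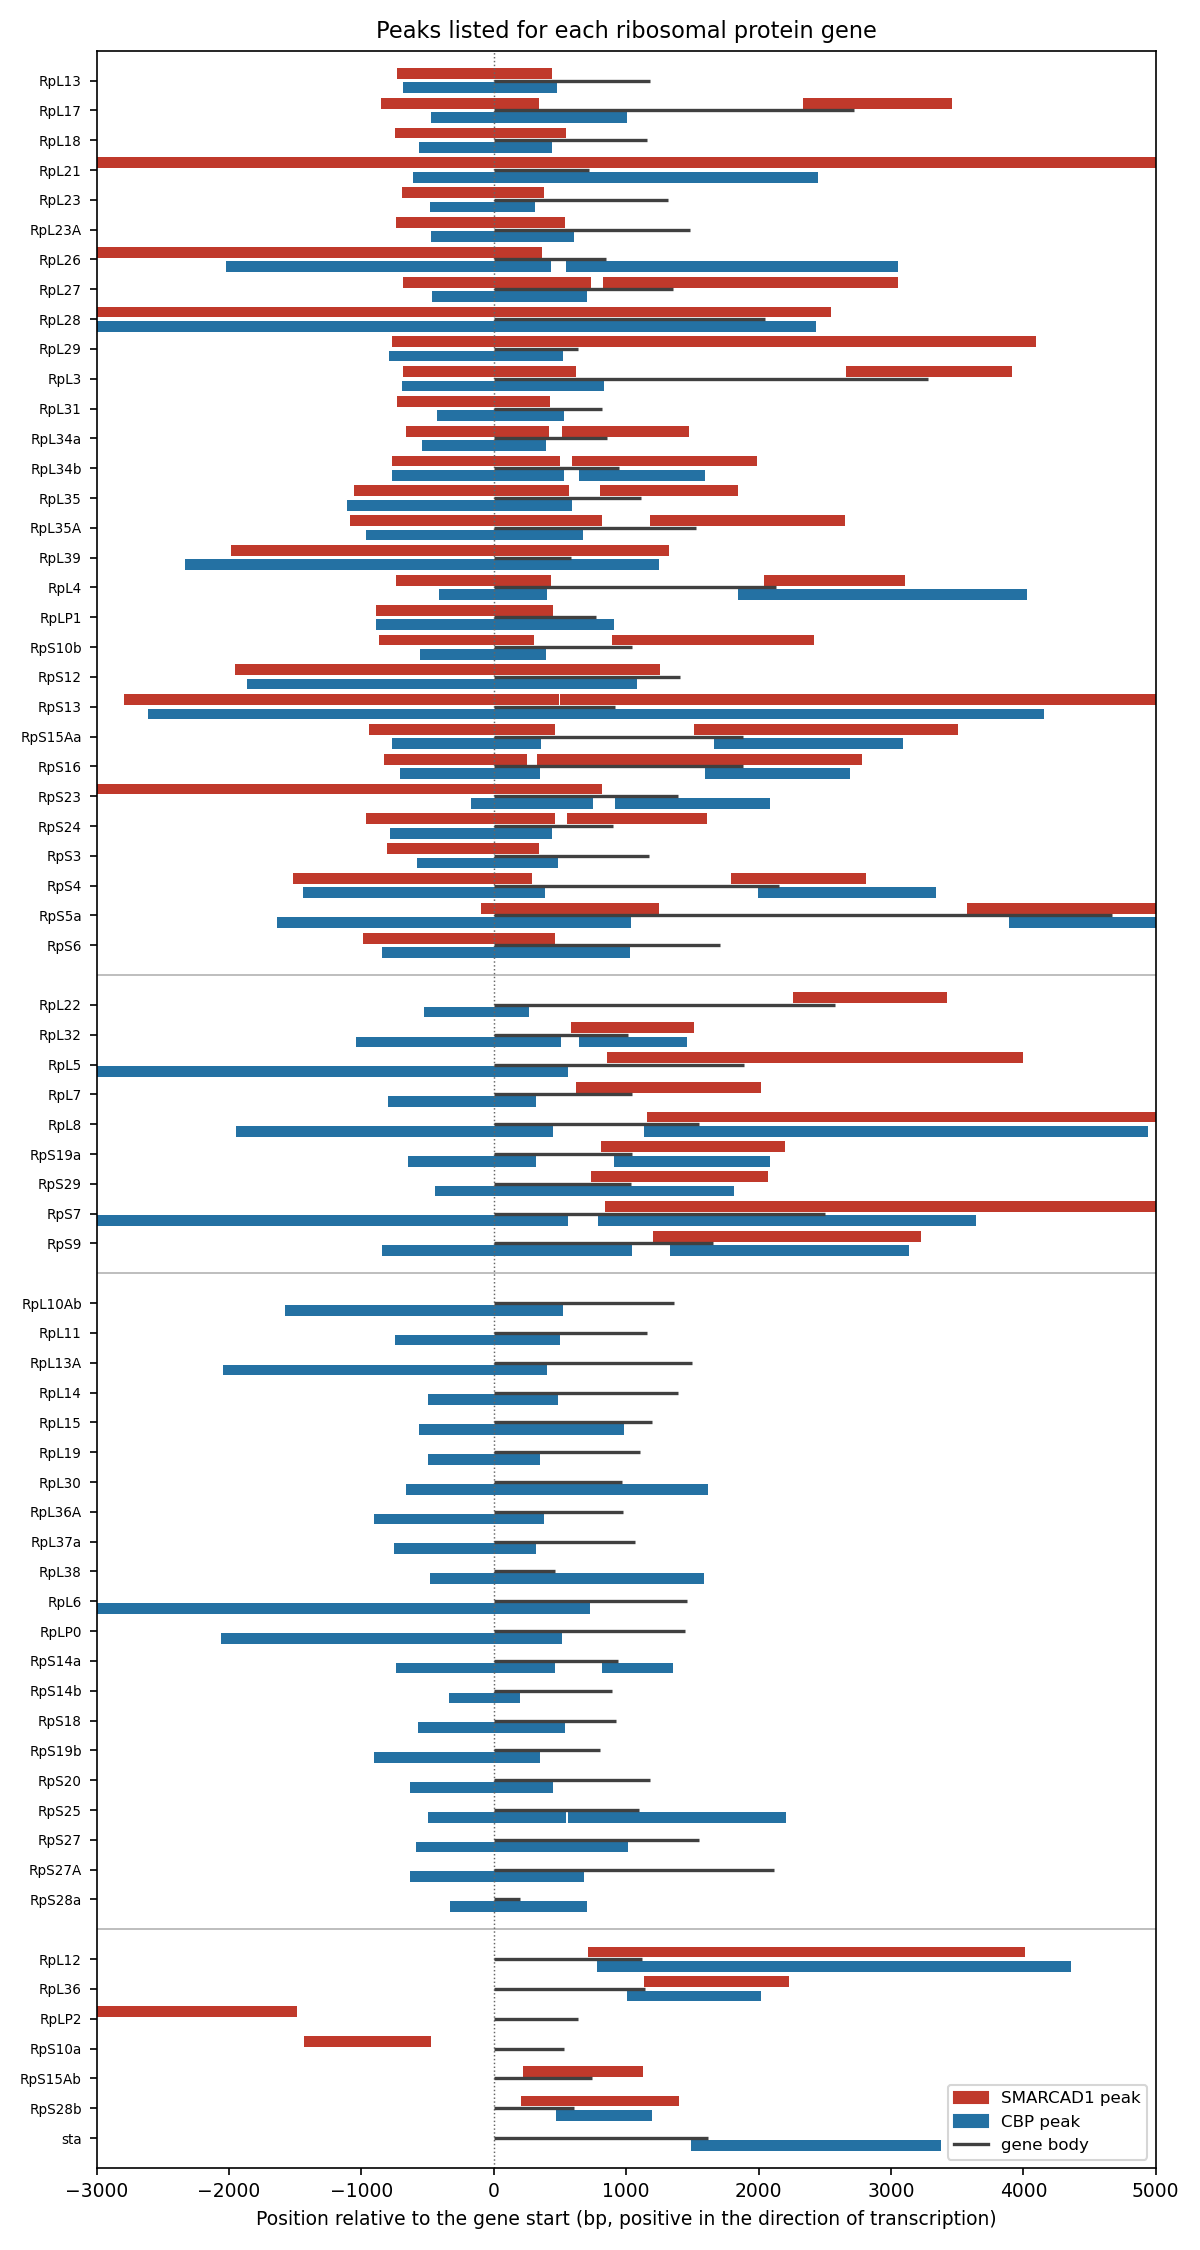
Peaks listed for 67 of the 71 ribosomal protein genes, as position relative to the gene start in bp, with SMARCAD1 peaks in red above each gene body (black line) and CBP peaks in blue below it. Bars are trimmed at the edges of the plot. Grey lines separate, from top to bottom, the 30 drawn genes with both antibodies over the start, 9 with CBP over the start and SMARCAD1 elsewhere, 21 with CBP over the start and no SMARCAD1 entry, and 7 with neither over the start.

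The shared starts included genes of both subunits and of the stalk. In the large subunit, both antibodies covered 19 of 37 starts and CBP covered 35 (94.6%, 82.3 to 98.5%). These included RpL3, whose protein reaches towards the peptidyl transferase centre, and RpL4, RpL17 and RpL39, whose proteins line the nascent peptide exit tunnel. They also included RpL23A and RpL35, whose proteins surround the tunnel exit. At RpL3 (chr3R, 7047618 to 7050897, plus strand), the SMARCAD1 peak was 1307 bp wide with its centre at -35 bp from the start (negative values are upstream). The CBP peak there was 1527 bp wide with its centre at 72 bp. At RpL23A, the SMARCAD1 centre was at -101 bp and the CBP centre at 65 bp. Both genes thus had their start near the middle of both peaks.

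In the small subunit, both antibodies covered 11 of 31 starts (35.5%, 21.1 to 53.1%) and CBP covered 26 (83.9%, 67.4 to 92.9%). The intervals of the subunits overlap for both antibodies. Shared starts included RpS3, whose protein lines the mRNA entry channel, RpS6, the classical substrate of S6 kinase, and RpS23, whose protein lies at the decoding centre. At RpS3 (chr3R, 19184525 to 19185697, plus strand), the SMARCAD1 centre was at -232 bp and the CBP centre at -49 bp. At RpS6 (chrX, 7793653 to 7795362, minus strand), they were at -263 and 94 bp. SMARCAD1 thus sat further upstream than CBP at both. The stalk proteins, which recruit the translational GTPases to the large subunit, differed from each other. RpLP1 had both antibodies over its start, with SMARCAD1 at -221 bp and CBP at 10 bp, RpLP0 had CBP alone with a centre at -773 bp, and RpLP2 had neither.

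SMARCAD1 peak centres lay upstream of the start at most shared genes, and upstream of the CBP centre. Of the 31 SMARCAD1 centres, 27 were upstream. Their median was -232 bp, with a 95% interval from -281 to -134 bp and quartiles at -310.5 and -128 bp. Over the entries of members with the nearest start, whatever their class, the median was -112 bp, and that of CBP -74 bp. Over all 2763 listed genes with a SMARCAD1 peak over the start, the median was -192 bp (-206 to -171 bp). The CBP distance at 63 member starts had a median of -103 bp (-162 to -49 bp), beside -129 bp (-140 to -120 bp) for 3606 listed genes. At the 31 shared starts, the position of the SMARCAD1 centre minus that of the CBP centre had a median of -79 bp (-166 to -27 bp). SMARCAD1 was the further upstream at 24 of 31 genes. Over 1901 listed genes with both, the median difference was -10 bp (-16 to -2 bp), and SMARCAD1 was the further upstream at 1010. The interval of the members therefore lay outside that of all listed genes.

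The size of this offset differed between genes. Among the members with the closest centres, SMARCAD1 and CBP differed by 12 bp at RpL35A, 15 bp at RpL35, -17 bp at RpL34b and -27 bp at RpL28. RpL35A and RpL35 had SMARCAD1 slightly downstream, and RpL34b and RpL28 slightly upstream. The centres were furthest apart at RpS23 and RpS13, each -1918 bp, followed by RpL29 at 1798 bp, RpL26 at -1696 bp and RpS5a at 874 bp. At RpS23, a SMARCAD1 peak of 4892 bp met a CBP peak of 926 bp. At RpL29, the widths were 4866 and 1315 bp. Both of these SMARCAD1 peaks also covered the starts of other listed genes. RpS13 was the reverse case, with 3287 bp for SMARCAD1 and 6766 bp for CBP.

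**Figure D2:**
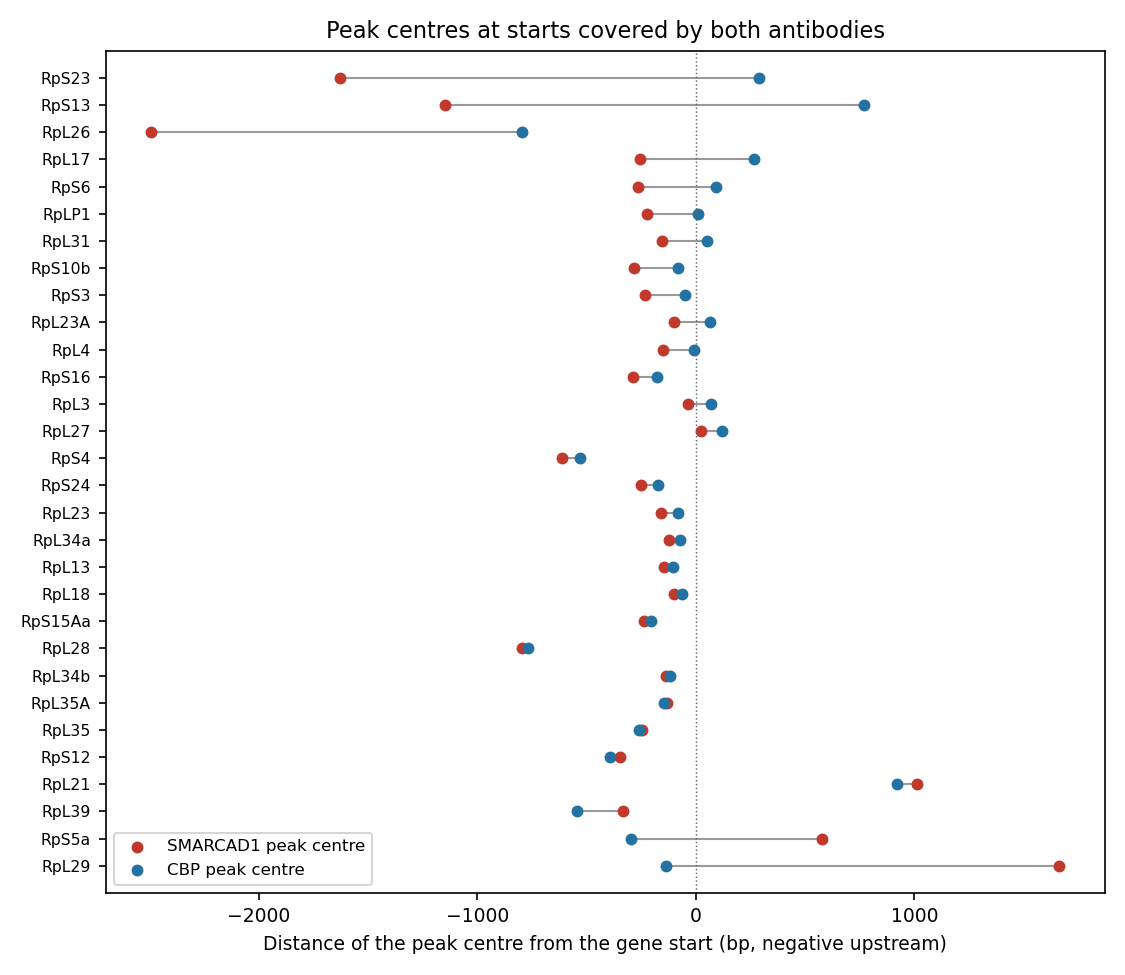
Distance of the SMARCAD1 (red) and CBP (blue) peak centre from the gene start in bp at 30 of the 31 ribosomal protein genes whose start both antibodies covered, ordered by the difference. Red lies to the left of blue at 23 of those drawn, and the difference is widest at RpS23 and RpS13, each -1918 bp.

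SMARCAD1 peaks at member starts were narrower than at other listed genes, while for CBP the intervals overlapped. The SMARCAD1 peaks had a median width of 1402 bp (1273 to 1908 bp), against 2138 bp (2070 to 2209 bp) for all listed genes with a peak over the start and 2204 bp (2091 to 2309 bp) for listed genes of at most 1548.5 bp, the upper quartile of member length. The CBP peaks had a median of 1317 bp (1170 to 1740 bp), against 1554.5 bp (1509 to 1606 bp) for all listed genes and 1456 bp (1402 to 1541 bp) for short ones, both inside the interval of the members. The narrowest SMARCAD1 peaks lay over RpL23 at 1073 bp, RpS16 at 1082 bp and RpL34a at 1087 bp. The narrowest CBP peaks lay over RpS14b at 539 bp, RpL23 at 794 bp and RpL22 at 799 bp. RpL23, whose protein is on the subunit interface side of the large subunit, was thus narrow for both antibodies. The widest SMARCAD1 peaks lay over RpL21 at 8371 bp, RpL28 at 6677 bp and RpL26 at 5707 bp, and the widest CBP peaks over RpS13 at 6766 bp, RpL28 at 6408 bp and RpL6 at 5287 bp. RpL28 was wide for both, and its peaks also covered the starts of CG11505, CG17737 and 5 snoRNA genes inside RpL28.

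At 32 members, CBP alone covered the start, and these divided by whether SMARCAD1 was listed elsewhere on the gene. The CBP peaks of these 32 had a median width of 1434.5 bp (1111 to 2074 bp) and a median distance of -126.5 bp (-262 to 23 bp). The CBP peaks of the 31 shared starts had 1315 bp (1082 to 1826 bp) and -83 bp (-178 to 10 bp). Position and width of the CBP peak thus had overlapping intervals in both groups. Gene length overlapped as well, with medians of 1184 bp for the shared starts, 1548 bp for the 9 genes with SMARCAD1 elsewhere and 1129 bp for the 23 genes with no SMARCAD1 entry.

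In 9 of the 32, the table listed SMARCAD1 for the gene, and in each the peak lay over the gene end. They were RpL5, a binder of 5S rRNA, RpL7, RpL8, RpL22, RpL32, known as rp49 and widely used as a reference gene in fly RT-qPCR, RpS7, RpS9, RpS19a and RpS29. At RpL32 (chr3R, 25870868 to 25871880, minus strand), a CBP peak of 1553 bp with its centre at -265 bp covered the start. A SMARCAD1 peak of 926 bp and another CBP peak of 819 bp lay over its end, with centres 36.5 and 42 bp beyond it. At RpS19a, the end peaks were likewise near each other, 463.5 bp beyond the end for SMARCAD1 and 456.5 bp for CBP, and at RpS9 564 and 582.5 bp. RpL8 had wider peaks, 3888 bp for SMARCAD1 and 3807 bp for CBP, with centres 1552.5 and 1494 bp beyond the end, and both covered the start of dos. CBP was thus also over the end in these genes, and in RpS7 and RpS29, 6 of 9 in all. In RpS29 it was a single CBP peak of 2263 bp that spanned the whole gene. Other starts lay under several more of these end peaks. Both end peaks of RpS9 covered the start of CG3408. The SMARCAD1 end peak of RpS29 covered that of CG12947, and the SMARCAD1 end peak of RpS7 that of CG9743. RpL5, RpL7 and RpL22 had SMARCAD1 alone over the end, with centres 540, 276 and 263.5 bp beyond it. Their CBP centres at the start were at -1362, -240 and -129 bp. At the starts of the others, the CBP centre was at -748 bp in RpL8, -1378 bp in RpS7, 101 bp in RpS9, -162 bp in RpS19a and 687 bp in RpS29.

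The other 23 members with CBP alone had no SMARCAD1 entry. In the large subunit these were RpL10Ab, RpL11, RpL13A, RpL14, RpL15, RpL19, RpL30, RpL36A, RpL37a, RpL38 and RpL6. The CBP centre was nearest to the start at RpL14 (-4 bp), RpL19 (-74 bp) and RpL11 (-124 bp). It lay further upstream at RpL37a (-217 bp), RpL36A (-262 bp), RpL10Ab (-528 bp), RpL13A (-821 bp) and RpL6 (-1913 bp), and downstream at RpL15 (212 bp), RpL30 (481 bp) and RpL38 (553 bp). RpL11 encodes the partner of RpL5 on 5S rRNA, and RpL10Ab the protein of the L1 stalk. RpL15, a gene of pericentric heterochromatin, was listed on 3LHet and was the only member outside the 5 main chromosome arms. In the small subunit they included RpS14a, RpS14b, RpS18, RpS19b, RpS20, RpS25, RpS27, RpS27A and RpS28a. Their CBP centres ran from -280 bp at RpS19b to 214 bp at RpS27, with RpS18 (-17 bp), RpS27A (23 bp) and RpS25 (26 bp) nearest to the start. Between these lay RpS14a (-135 bp), RpS20 (-93 bp), RpS14b (-71 bp) and RpS28a (185 bp). RpS27A encodes a fusion of ubiquitin with a ribosomal protein. The stalk gene RpLP0 also belongs to the group.

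In 8 members, no peak covered the start. SMARCAD1 and CBP both covered the end of RpL12, RpL36 and RpS28b, SMARCAD1 alone that of RpS15Ab, and CBP alone that of sta. RpL12 encodes the protein at the base of the stalk, and sta (stubarista) the small subunit protein SA. At RpL36 (chrX, 522350 to 523495, minus strand), the centres were 538.5 bp beyond the end for SMARCAD1 and 366 bp for CBP, and neither peak covered a listed start. At RpS28b they were 199 and 230.5 bp beyond the end of a gene of 603 bp. The SMARCAD1 centre at RpS15Ab was at -65.5 bp from the end, inside the gene. The CBP centre was 818 bp beyond the end at sta. RpLP2 and RpS10a were listed only as the genes nearest to a SMARCAD1 peak upstream of them, centred at -3131 and -954 bp.

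Peaks over gene ends were the other frequent class. The end (transcription end site) was covered by SMARCAD1 in 33 of 71 members (46.5%, 35.4 to 58.0%), against 30.8% of all listed and 11.6% of annotated protein-coding genes. It was covered by CBP in 30 members (42.3%, 31.5 to 53.8%), against 21.8% of all listed and 8.04% of annotated protein-coding genes. The annotated shares count genes with no entry, whereas the 71 members leave out 15 annotated ribosomal protein genes with none. They are therefore not on the same footing as the shares of the members. Since members are short, with a median length of 1156 bp against 2464.5 bp, a peak at the start can reach the end. Among listed genes of at most 1548.5 bp, SMARCAD1 covered 39.0% of ends (36.9 to 41.2%) and CBP 33.2% (31.1 to 35.4%), and both shares lie within the intervals of the members. A single SMARCAD1 peak spanned the whole gene in 4 members, RpL21, RpL28, RpL29 and RpL39, and a single CBP peak in 9. The other start peaks, of class OverlapStart, were 27 of 31 for SMARCAD1 and 54 of 63 for CBP. Among all listed genes they were 2292 of 2763 and 3243 of 3606, and among short ones 510 of 926 and 736 of 1078. Of the listed genes, 291 were at most 200 bp long, and of the members 1. Most member ends were covered by a peak that did not reach the start. Of 62 SMARCAD1 entries, 29 were of class OverlapEnd (46.8%, 34.9 to 59.0%), against 24.1% of all entries and 21.8% (19.8 to 24.0%) of entries of short genes. Of 84 CBP entries it was 21 (25%, 17.0 to 35.2%), against 14.8% and 17.5% (15.7 to 19.3%). No member entry of either antibody was of class Inside or Downstream. Among entries of short genes, Inside was also rare, at 0.133% for SMARCAD1 and 0 of 1673 for CBP, and Downstream held 7.49 and 8.49%.

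**Figure D3:**
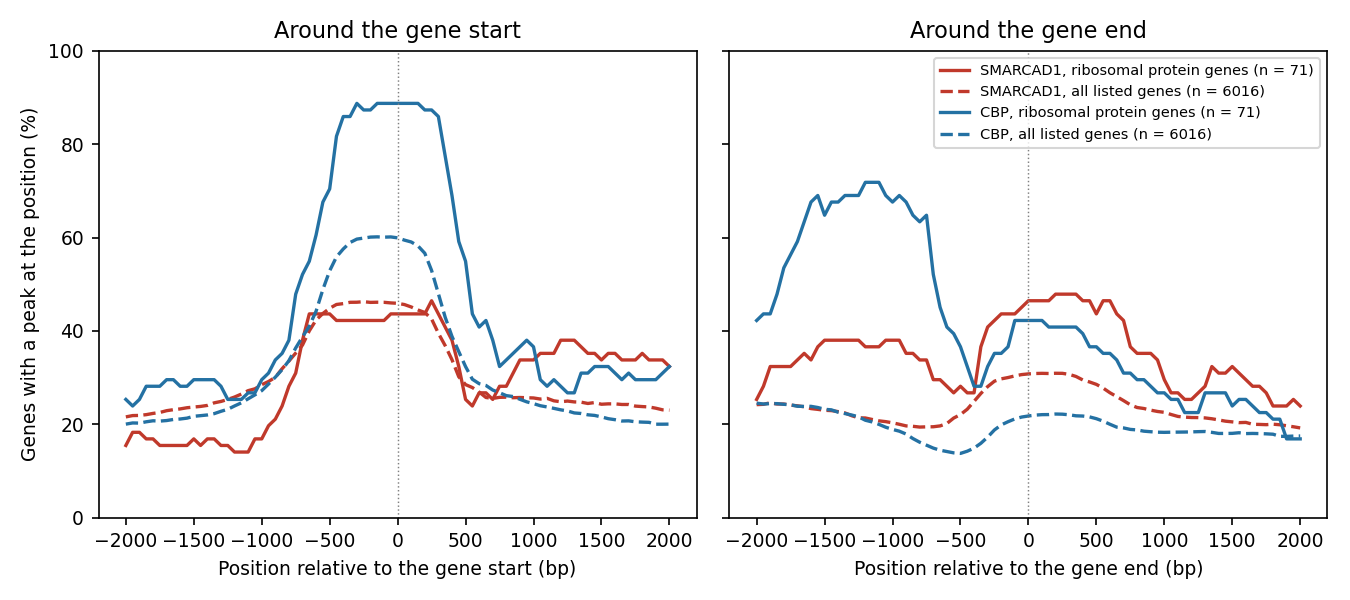
Share of genes with a SMARCAD1 (red) or CBP (blue) peak at each position around the gene start (left) and the gene end (right) in bp, for the 71 ribosomal protein genes (solid) and all 6016 listed genes (dashed). CBP reaches 88.7% of ribosomal protein genes at the start against 59.9% of listed genes, while SMARCAD1 is at 43.7 and 45.9%, and at the end itself SMARCAD1 is at 46.5 against 30.8% and CBP at 42.3 against 21.8%.

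Some members had a peak over the start and another peak of the same antibody over the end. Such peaks are separate by the choice of genes, so only the stretch between them is described. In 16 members with such a pair for SMARCAD1, this stretch had a median of 295.5 bp (86 to 1607 bp). The shortest was 7 bp, and 7 of 16 were at most 200 bp. In 16 members with such a pair for CBP, the median was 316.5 bp (133 to 1304 bp). The shortest was 14 bp, and 6 of 16 were at most 200 bp. The SMARCAD1 end peaks had their centre a median of 343 bp (186 to 540 bp) beyond the end, with 28 of 33 downstream, against 202.25 bp (174.5 to 225.5 bp) for all listed genes. The CBP end peaks of members had 181.25 bp (42 to 366 bp), with 21 of 30 downstream, against 232.25 bp (198.5 to 266 bp). RpL17, RpL3 and RpS5a showed the separation most plainly, since these genes are 2721, 3280 and 4668 bp long. RpL17 (chrX, 6635570 to 6638290, minus strand) had SMARCAD1 peaks of 1188 bp over the start and 1123 bp over the end, and CBP over the start alone. RpS5a had both antibodies over its start and its end. The SMARCAD1 end peak of RpL3 also covered the start of scpr-C. Both end peaks of RpS5a also covered the starts of mei-217, mei-218 and snoRNA genes.

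Many of these end peaks also covered the start of another listed gene, and the part of that gene was not tested. The other gene could be a neighbour or a small RNA gene inside the member. The CBP end peak of RpS7 covered only the starts of 7 snoRNA genes inside RpS7. Of 29 SMARCAD1 peaks over a member's end and not its start, 16 covered another listed start, as did 13 of 21 such CBP peaks. Among all listed genes the shares were 62.6 and 79.3%. When every peak over a listed start, the gene's own included, was left out, 13 members kept a SMARCAD1 end peak (18.3%, 11.0 to 28.8%), against 10.7% of all listed genes and 7.54% of short ones. For CBP 8 members were left (11.3%, 5.82 to 20.7%), against 4.02 and 4.50%. The 13 were RpL5, RpL7, RpL17, RpL22, RpL27, RpL32, RpL35, RpL36, RpS10b, RpS15Aa, RpS15Ab, RpS19a and RpS28b. This count was chosen after the data were seen.

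Neighbours also shared the peaks at member starts. Of the 31 SMARCAD1 start peaks, 24 (77.4%, 60.2 to 88.6%) covered another listed start, and of the 63 CBP start peaks 45 (71.4%, 59.3 to 81.1%), against 49.2 and 50.3% for all peaks over a start. The latter shares count each peak once, whereas choosing peaks through a gene favours peaks over several starts. The shares are therefore not alike, and an excess at members was not tested. In 23 and 41 peaks, another gene was neither a member nor a small RNA gene. The start peaks of RpL13 (chr2L, 9967312 to 9968495, plus strand) also covered the start of Dref, which encodes the DNA replication-related element factor, and those of RpS6 that of bys. Where a peak covers more than a single start, the tables do not tell which gene it belongs to. All 31 SMARCAD1 peaks over member starts overlapped a CBP peak. This follows from CBP covering the same 31 starts and is not a separate result. Among all SMARCAD1 peaks over a start, each counted once, 70.8% overlapped a CBP peak. Of the CBP peaks over member starts, 32 of 63 overlapped a SMARCAD1 peak (50.8%, 38.8 to 62.7%), 31 of them at the shared starts. Among all CBP peaks over a start, each counted once, it was 53.6%.

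Small RNA genes lie within several members. The tables listed 40 of them inside 20 members, and all 40 were on the strand of their host. A SMARCAD1 peak covered the start of at least 1 such gene in 8 hosts and a CBP peak in 16. RpS7 carried 7 snoRNA genes, all under both antibodies, and in RpS16 5 snoRNA genes lay under SMARCAD1 and none under CBP. A small RNA gene is listed only where a peak touches it or lies nearest, so these counts do not describe all host genes.

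A pair of neighbouring members shared a single peak per antibody. RpL12 and RpL39 end towards each other on 2R. A SMARCAD1 peak of 3307 bp and a CBP peak of 3578 bp each spanned the whole of RpL39 and reached over the end of RpL12. In the tandem copies RpS14a and RpS14b on X, a CBP peak of 539 bp covered the end of RpS14a and the start of RpS14b. SMARCAD1 was listed for neither copy.

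Lettered paralogues did not always have the same peaks. RpL34a and RpL34b were alike, with SMARCAD1 centres at -123 and -134 bp, CBP centres at -74 and -117 bp, and SMARCAD1 over both ends. CBP covered the end of RpL34b alone. In contrast, RpS15Aa had both antibodies over its start, at -239 and -205 bp, whereas RpS15Ab had neither. RpS10b had them at -281 and -80 bp, whereas RpS10a, a copy known for its activity in the germline, had only the upstream SMARCAD1 peak. RpS19a had CBP over the start and SMARCAD1 over the end, and the germline copy RpS19b had CBP over the start alone, at -280 bp. RpS28a, a gene of 195 bp, lay wholly under a CBP peak of 1033 bp centred at 185 bp, which also covered the starts of Axn and Mgat2. RpS28b had both antibodies over the end alone. RpS5a had both antibodies over its start, at 576 and -298 bp, and RpS5b had no entry. RpL10Ab and RpL37a had CBP alone. Reads from near-identical copies can be hard to place. The methods give default settings of the BWA aln and samse steps, and a filter on reads that match several places is not given in the sources used here.

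Members with CBP over the start were found on every arm. They were 9 of 9 on 2L, 12 of 16 on 2R, 12 of 12 on 3L, 18 of 19 on 3R and 11 of 14 on X. Among all listed genes the CBP shares were 60.2, 64.5, 62.7, 62.5 and 50.1% on these arms. SMARCAD1 covered 4, 8, 6, 7 and 6 member starts, against 43.7, 46.5, 45.4, 47.7 and 48.2% of all listed genes. It covered 4, 7, 4, 9 and 9 member ends, against 28.1, 28.3, 32.1, 28.9 and 40.4%. With 9 to 19 members an arm, each of these all-listed shares for SMARCAD1 lay within the interval of the members.

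Other genes of protein synthesis and turnover were counted for comparison. Among 45 mitochondrial ribosomal protein genes, CBP covered 33 starts (73.3%, 59.0 to 84.0%) and SMARCAD1 26 (57.8%, 43.3 to 71.0%), and 7 starts had SMARCAD1 alone. Ends were covered in 7 of these genes by SMARCAD1 (15.6%, 7.75 to 28.8%) and in 8 by CBP (17.8%, 9.29 to 31.3%), and both intervals lie below those of the cytosolic members. Among 19 proteasome subunit genes, CBP covered 16 starts and SMARCAD1 7. Among 25 translation factors it was 19 and 12, and among 29 ribosome biogenesis genes 24 and 17. The CBP intervals of these lists overlap that of the cytosolic members. A start with SMARCAD1 alone was found in each of the lists, 1 among proteasome genes, 3 among translation factors and 3 among ribosome biogenesis genes.

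**Figure D4:**
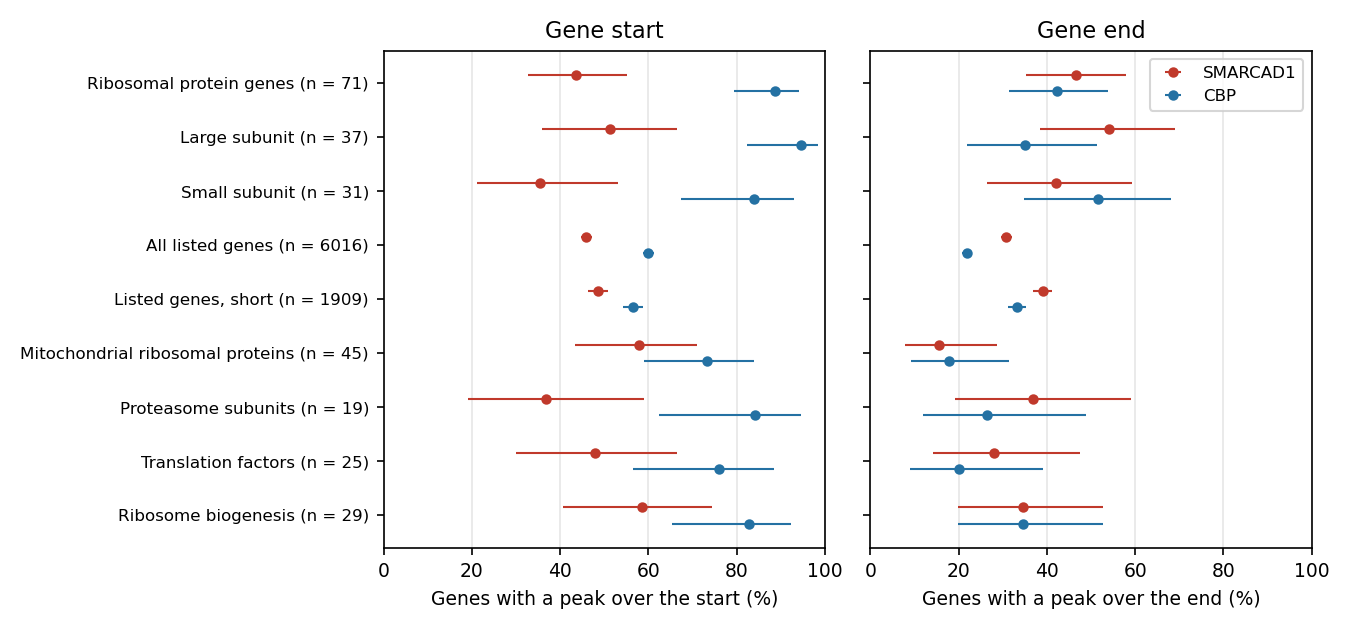
Share of genes with a SMARCAD1 (red) or CBP (blue) peak over the start (left) and the end (right), for the ribosomal protein genes, their subunits and other gene sets. Points are shares, lines are Wilson 95% intervals, n is the number of genes, and short means at most 1548.5 bp. CBP at starts is at 88.7% for ribosomal protein genes and 59.9% for all listed genes.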

How the data were processed

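ChIP-seq peak tables of S2 cells were analysed, 1 for SMARCAD1 and 1 for CBP. According to the methods, the authors mapped reads with BWA, called peaks per library against a control with MACS, and assigned genes with ChIPpeakAnno. The deposited values are positions, widths and signed distances in bp. Per the file headers there is no count, score or P value column, so depth is unknown. The methods name dm6, but the sequence names of the tables (such as 3LHet and Uextra) are not those of Release 6, and coordinates are given as in the tables. Names of 71 of 71 members matched a RefSeq table of Release 6, used for names alone.

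A start was covered where the class was OverlapStart or IncludeFeature, an end where it was OverlapEnd or IncludeFeature, both checked against coordinates. Python 3.11.15, numpy 2.4.6, pandas 2.3.3, scipy 1.17.1 and matplotlib 3.10.9 were used. The steps were tested on simulated data. Overlap was counted from 1 bp.

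Members and gene lists were chosen with earlier results of these data known. Named genes are members with a start covered by 1 antibody or by none, the 3 widest and 3 narrowest start peaks, the 5 largest and 5 smallest centre differences, paralogue pairs and members sharing a peak, others being examples by function. A few members that this rule names are counted but not reported here by name. Planned promoter letters and motifs were not analysed here.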

Additional observations from a re-analysis of the deposited data

How the results depend on the processing

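With 1 library per antibody, depth and replicate error are unknown, and no call could be tested. No paired analysis was possible because each group had 1 library. Of 47 alternatives to 10 results, 29 left the value within 1.5 times the count or within the interval, and 18 moved it. Counting a peak only for the gene with the nearest start left 18 members with SMARCAD1 over the start, 37 with CBP and 16 with both, and 12 and 9 with SMARCAD1 and CBP over the end. Over all member entries with the nearest start, whatever their class, end peaks included, the median SMARCAD1 distance was -112 bp. Using the central 500 bp of each peak left 16, 38 and 15 starts, or 22.5, 53.5 and 21.1% of members. The shares of all listed genes were 16.0, 27.7 and 8.93%. By the same rule 10 and 11 ends were left (14.1 and 15.5%), against 9.81 and 6.70% of all listed genes. End peaks that cover no listed start left 13 members for SMARCAD1 and 8 for CBP. The alternatives for gene ends were chosen after seeing the data. Taking all entries of members, end peaks included, moved the median distance to 624 bp for SMARCAD1 and -6 bp for CBP. Of SMARCAD1 start peaks, 83.9% overlapped CBP when 50% of each had to be shared, 64.5% had a CBP centre at most 200 bp away, and 80.6% overlapped when only the central 500 bp were used.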

Other observations

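The RefSeq table held 87 cytosolic ribosomal protein genes by the same naming rule. In the peak tables, 72 of them had an entry, 71 under their own name or a synonym that fits the rule and RpS21 under the older name oho23B. Both antibodies covered the start of RpS21, and CBP its end. The 15 with no entry for either antibody were RpL7A, RpL9, RpL10, RpL10Aa, RpL24, RpL27A, RpL37A, RpL40, RpL41, RpS2, RpS3A, RpS5b, RpS15, RpS26 and RpS30. They include RpL40 and RpS30, whose proteins are made as fusions with ubiquitin or a ubiquitin-like protein, and RpL24, a protein of the subunit interface.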
